A study of Oncorhynchus mykiss with 6 samples.

Results

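Succinate dehydrogenase (SDH), also called complex II, is the enzyme of the inner mitochondrial membrane that belongs to both the TCA cycle and the respiratory chain. Its loci were followed here in dorsal skin of rainbow trout (Oncorhynchus mykiss), in a yellow colour mutant and in the wild type. Loci were taken when the deposited symbol was sdha, sdhb, sdhc or sdhd, whatever its case and with an optional trailing a or b, or when the deposited product name contained succinate dehydrogenase. This gave 16 of the 41818 loci in the table. Of these, 12 code for subunits (5 for SDHA, 3 for SDHB, 2 for SDHC and 2 for SDHD) and 4 for assembly factors. The family was picked with results of this comparison known, so its differences between the phenotypes are given as a description, with no test.

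The data are RNA-seq counts of 3 yellow mutant and 3 wild-type libraries, all from dorsal skin at an age of 45 day. The labels name the phenotype only, and no genotype, strain or rearing. Nothing in them tells if each library is a different fish, so p-values below reflect library-to-library spread, possibly technical, and no more. Levels are TMM-scaled CPM (counts scaled for depth and library composition) unless FPKM (scaled by the authors for gene length and depth) is named, and n = 3 libraries per phenotype throughout.

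SDH oxidises succinate to fumarate and passes the electrons to ubiquinone. SDHA carries the flavin and binds succinate, SDHB carries the iron-sulfur clusters that conduct the electrons, and SDHC and SDHD anchor the catalytic part in the membrane and form the ubiquinone site. Unlike the other complexes of the respiratory chain, SDH pumps no protons, and all of its subunits are encoded in the nucleus. Salmonid genomes went through an additional genome duplication, and many genes are kept as several copies.

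Total counts were 16334241 to 19031878 in yellow mutant skin and 15059101 to 17975192 in wild-type skin. Of 30691 genes tested with edgeR's quasi-likelihood test, 13737 (44.8%) passed an adjusted p of 0.05, 6658 higher (21.7%) and 7079 lower (23.1%) in yellow mutant skin. This split depended on the scaling: with library totals in place of TMM factors, 70.4% of the calls were higher, against 48.5% with TMM, and the median log2 fold change of all genes was 0.196, against -0.003 with TMM. Marker sums showed skin with adjoining tissue. Epidermal markers summed to 32240 to 36020 CPM in yellow mutant skin and 82150 to 86300 CPM in wild-type skin, with 2 of 48 tested loci higher and 34 lower. Dermal markers summed to 55170 to 60670 CPM in yellow mutant skin and 68690 to 77970 CPM in wild-type skin (1 of 21 higher, 9 lower), and melanophore markers to 1099 to 1306 CPM in yellow mutant skin and 486 to 572 CPM in wild-type skin (12 of 13 higher, 0 lower). Skeletal muscle markers overlapped, with 18530 to 27990 CPM in yellow mutant skin and 25450 to 31620 CPM in wild-type skin (7 of 37 higher, 11 lower). Slow oxidative muscle markers overlapped too, at 1067 to 1773 CPM in yellow mutant skin and 1512 to 1792 CPM in wild-type skin (4 of 17 higher, 2 lower). Nerve markers summed to 281.7 to 353.3 CPM in yellow mutant skin and 232.7 to 262 CPM in wild-type skin, and the sums of adipocyte, erythrocyte, leukocyte and mitochondria-rich ionocyte markers overlapped. The part of these tissue differences in the SDH values was not tested, and in bulk skin fewer cells of a type and less RNA per cell cannot be told apart.

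With TMM scaling, copies of SDHA and SDHB carried all of the differences past the threshold, while both copies of each membrane anchor had overlapping levels. Of the 12 subunit loci, 11 passed the filter on low counts. Of these 11, 4 stood past the threshold in the higher direction (3 sdha and 1 sdhb), 1 in the lower direction (sdhb) and 6 not past it, beside 44.8% of all genes called. The same 5 loci were those whose phenotypes did not overlap, beside 54.3% of all genes (26.8% with the yellow mutant above and 27.6% with it below). The median log2 fold change of the 11 loci was 0.16, beside -0.003 over all genes tested. The contrast was known when the family was picked, and nothing is read from these counts.

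**Figure D1:**
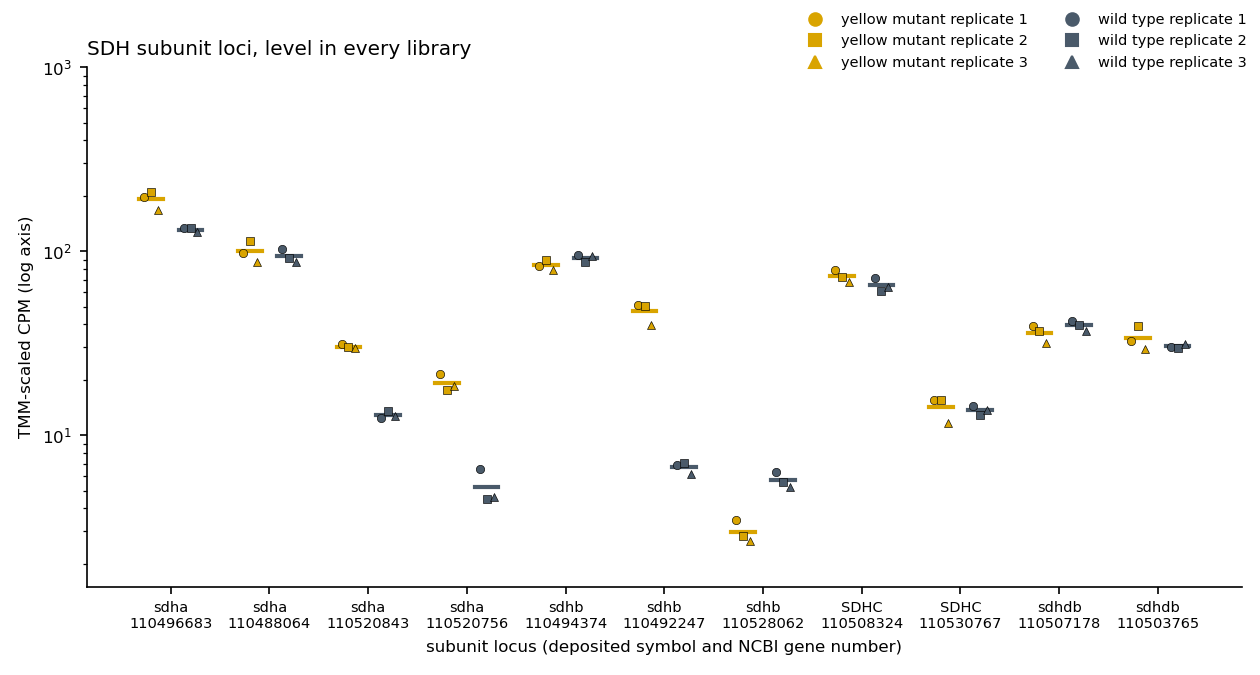
Levels of the 11 tested SDH subunit loci in each library, in TMM-scaled CPM on a log axis; points are libraries and short bars the means of 3 libraries. The phenotypes separate at 3 sdha loci, at sdhb ncbi_110492247 (39.9 to 50.7 CPM in yellow mutant skin, 6.17 to 7.08 CPM in wild-type skin) and, in the other direction, at sdhb ncbi_110528062.

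Of the 5 loci for the flavoprotein SDHA, 4 were expressed. The most abundant, ncbi_110496683, had 198, 209 and 167 CPM in yellow mutant replicates 1 to 3 and 134, 133 and 127 CPM in wild-type replicates 1 to 3. All yellow mutant libraries lay above all wild-type libraries, with a log2 fold change of 0.54 (SE 0.0906), or 1.46-fold. The second copy, ncbi_110488064, had 97.9, 114 and 87.5 CPM in yellow mutant skin and 103, 91.6 and 87.5 CPM in wild-type skin. These ranges overlapped, and the log2 fold change was 0.089 (SE 0.10); with library totals alone it was 0.29, past the threshold.

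The less abundant sdha loci showed the larger differences. Locus ncbi_110520843 had 31.1, 30.2 and 29.6 CPM in yellow mutant skin and 12.4, 13.5 and 12.7 CPM in wild-type skin, a log2 fold change of 1.24 (SE 0.0845). Locus ncbi_110520756 had 21.6, 17.7 and 18.5 CPM in yellow mutant skin and 6.56, 4.507 and 4.6 CPM in wild-type skin, a log2 fold change of 1.87 (SE 0.15), or 3.66-fold. At both loci every yellow mutant library exceeded every wild-type library. The product name of ncbi_110520756 is that of a partial flavoprotein from another fish. The fifth locus, ncbi_110507282, had 1 count in yellow mutant replicate 3 and 0 in the other libraries, and was not tested.

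Summed over its copies, SDHA stood at 340.5 ± 35.0 CPM in yellow mutant skin and 243.1 ± 11.8 CPM in wild-type skin (SD), a log2 fold change of 0.49 (SE 0.0910). The yellow mutant libraries had 349, 371 and 302 CPM and the wild-type libraries 255, 243 and 231 CPM, without overlap. The lowest yellow mutant value was that of replicate 3, the library that also had the lowest skeletal muscle marker sum (18530 CPM, against 27990 and 24120 CPM in yellow mutant replicates 1 and 2). It also had the lowest summed level of SDHB, SDHC and SDHD among the yellow mutant libraries. Whether tissue makeup takes part in this was not tested. Within the SDHA counts, ncbi_110496683 held 56.1 ± 0.864% in yellow mutant skin and 54.0 ± 1.42% in wild-type skin. The second copy, ncbi_110488064, held 29.3 ± 1.41% in yellow mutant skin and 38.6 ± 1.43% in wild-type skin. The smaller copies also held higher shares, ncbi_110520843 with 8.96 ± 0.827% in yellow mutant skin and 5.29 ± 0.391% in wild-type skin, and ncbi_110520756 with 5.69 ± 0.807% in yellow mutant skin and 2.14 ± 0.382% in wild-type skin.

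SDHB, the iron-sulfur subunit, showed the widest spread between copies, with 1 copy higher, 1 lower and 1 overlapping. Locus ncbi_110492247 had 50.7, 50.6 and 39.9 CPM in yellow mutant skin and 6.86, 7.08 and 6.17 CPM in wild-type skin. The lowest yellow mutant library thus exceeded the highest wild-type library several times over, and the log2 fold change was 2.81 (SE 0.12), or 7.02-fold. Of all 30691 genes tested, 108 had a larger log2 fold change. Raw counts were 877, 1035 and 779 in yellow mutant skin and 115, 99 and 102 in wild-type skin, so that neither group rests on a few reads.

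The main copy in wild-type skin, ncbi_110494374, had 83.2, 89.6 and 79.4 CPM in yellow mutant skin and 95.4, 87.4 and 93.6 CPM in wild-type skin. The ranges overlapped, and the log2 fold change of -0.13 (SE 0.0774) was 0.066 with library totals alone. The third copy, ncbi_110528062, was the only subunit locus below the wild type in every library. It had 3.47, 2.84 and 2.66 CPM in yellow mutant skin and 6.32, 5.58 and 5.21 CPM in wild-type skin, a log2 fold change of -0.94 (SE 0.18).

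The makeup of the SDHB message therefore differed in a way that no library scaling can change, since shares are taken within a library. Locus ncbi_110492247 held 36.9%, 35.4% and 32.7% of the SDHB counts in yellow mutant replicates 1 to 3, and 6.32%, 7.08% and 5.88% in wild-type replicates 1 to 3. For every 100 counts of ncbi_110494374 there were 55.8 of ncbi_110492247 in yellow mutant skin and 7.23 in wild-type skin. By FPKM, which divides by gene length, the share was 25.8 ± 1.79% in yellow mutant skin and 4.26 ± 0.419% in wild-type skin. The share of ncbi_110528062 was 2.23 ± 0.274% of counts in yellow mutant skin and 5.45 ± 0.444% in wild-type skin. How reads shared by near-identical copies were assigned is unstated (not given in the sources used here), so part of a copy's count may belong to another copy.

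The distance between the highest and the lowest log2 fold change of the SDHB copies was 3.75. Among the 1468 other deposited symbols with 3 tested loci the median distance was 0.67, and 26 of them (1.77%) were at least as wide. The same distance was 1.78 over the 4 tested SDHA copies (12.8% of 1101 other symbols with 4 tested loci at least as wide), 0.11 for SDHC and 0.29 for SDHD (81.3% and 53.5% of 4881 other symbols with 2 tested loci). These shares are background for the size of the distances, not a test, since SDH was chosen with its values known.

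**Figure D2:**
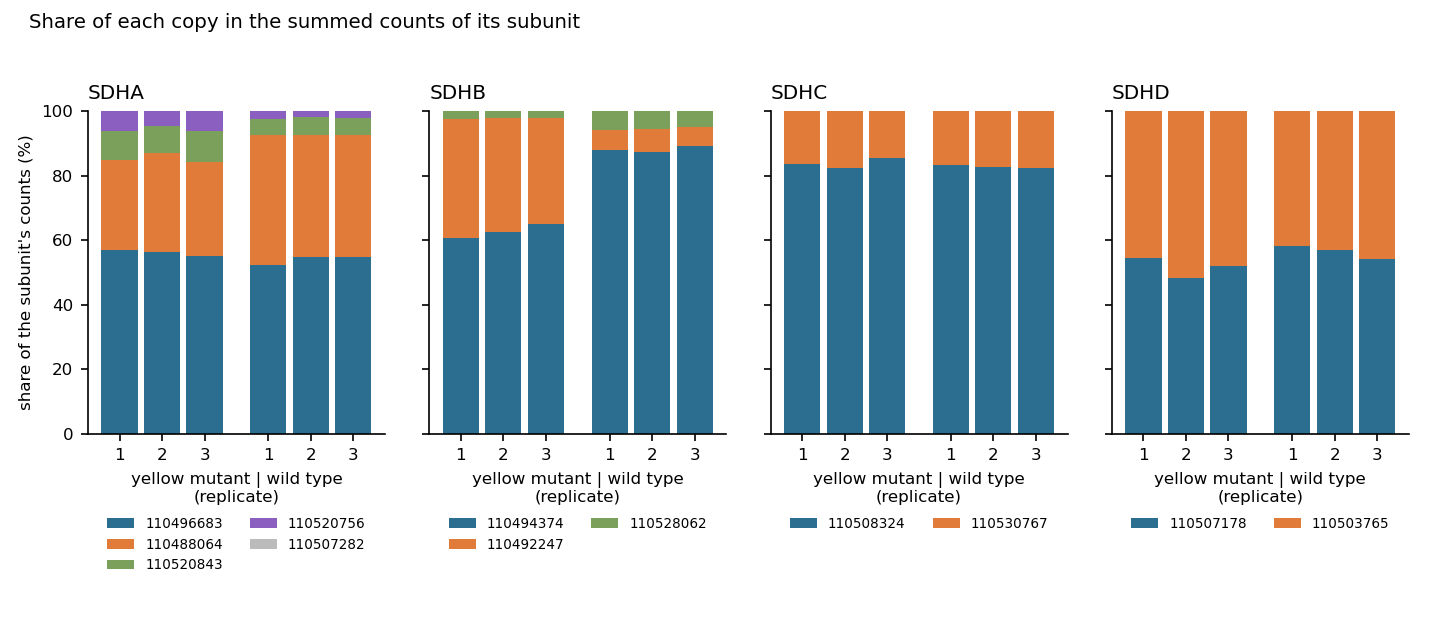
Share of each copy in the summed counts of its subunit, in percent, with 1 bar per library and yellow mutant libraries on the left in each panel. In SDHB, ncbi_110492247 takes 32.7 to 36.9% in yellow mutant skin and 5.88 to 7.08% in wild-type skin. In the SDHC and SDHD panels the shares of the phenotypes overlap.

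Summed over copies, SDHB had 137, 143 and 122 CPM in yellow mutant skin and 109, 100.1 and 105 CPM in wild-type skin, a log2 fold change of 0.36 (SE 0.0819) without overlap. This sum depended on ncbi_110492247. Without that locus, an alternative added after the data were seen, the log2 fold change was -0.17 (SE 0.0771).

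The membrane anchors showed no separation on this scale. SDHC, which contributes to the haem and ubiquinone sites, had 2 loci. The major copy, ncbi_110508324, had 79.4, 72.5 and 68.0 CPM in yellow mutant skin and 71.4, 60.9 and 63.7 CPM in wild-type skin. The minor copy, ncbi_110530767, had 15.4, 15.6 and 11.7 CPM in yellow mutant skin and 14.4, 12.8 and 13.7 CPM in wild-type skin. Both overlapped, with log2 fold changes of 0.16 (SE 0.0864) and 0.059 (SE 0.12). With library totals alone the major copy was at 0.36, past the threshold. The major copy held 83.8 ± 1.52% of the SDHC counts in yellow mutant skin and 82.7 ± 0.465% in wild-type skin, so that the copies kept about the same proportion.

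SDHD, the small cytochrome b subunit, also had 2 loci, both with the deposited symbol sdhdb. Locus ncbi_110507178 had 39.1, 37.0 and 31.7 CPM in yellow mutant skin and 41.9, 39.8 and 36.8 CPM in wild-type skin (log2 fold change -0.14, SE 0.0915, and 0.060 with library totals alone). Locus ncbi_110503765 had 32.5, 39.4 and 29.4 CPM in yellow mutant skin and 30.1, 29.8 and 31.1 CPM in wild-type skin (log2 fold change 0.16, SE 0.10, and 0.35 with library totals alone, past the threshold). Here the copies were closer in level than those of SDHC. Locus ncbi_110503765 held 48.4 ± 3.11% of the SDHD counts in yellow mutant skin and 43.5 ± 2.08% in wild-type skin, overlapping. Summed over copies, SDHD stood at 69.7 ± 7.82 CPM in yellow mutant skin and 69.9 ± 2.07 CPM in wild-type skin, and SDHC at 87.5 ± 7.57 CPM in yellow mutant skin and 79.0 ± 6.18 CPM in wild-type skin.

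Compared per length, the subunits did not stand in equal amounts, and SDHA took a larger part in yellow mutant skin. Summed FPKM of SDHA was 151.5 ± 15.1 in yellow mutant skin and 93.6 ± 5.98 in wild-type skin. SDHB reached 93.3 ± 6.89 FPKM in yellow mutant skin and 70.5 ± 3.79 FPKM in wild-type skin, and SDHC 98.3 ± 7.51 FPKM in yellow mutant skin and 77.2 ± 7.27 FPKM in wild-type skin. SDHD was the least abundant in every library, with 33.2 ± 3.57 FPKM in yellow mutant skin and 29.3 ± 1.46 FPKM in wild-type skin. SDHA ranked first in all 6 libraries, at 1.54 ± 0.114 times SDHC in yellow mutant skin and 1.22 ± 0.0737 times SDHC in wild-type skin. SDHB and SDHC, the next in order, lay within each other's spread in yellow mutant skin. FPKM values carry no TMM factor, and on this scale the SDHC libraries also did not overlap (90.5 to 105.5 FPKM in yellow mutant skin, 71.6 to 85.4 FPKM in wild-type skin).

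**Figure D3:**
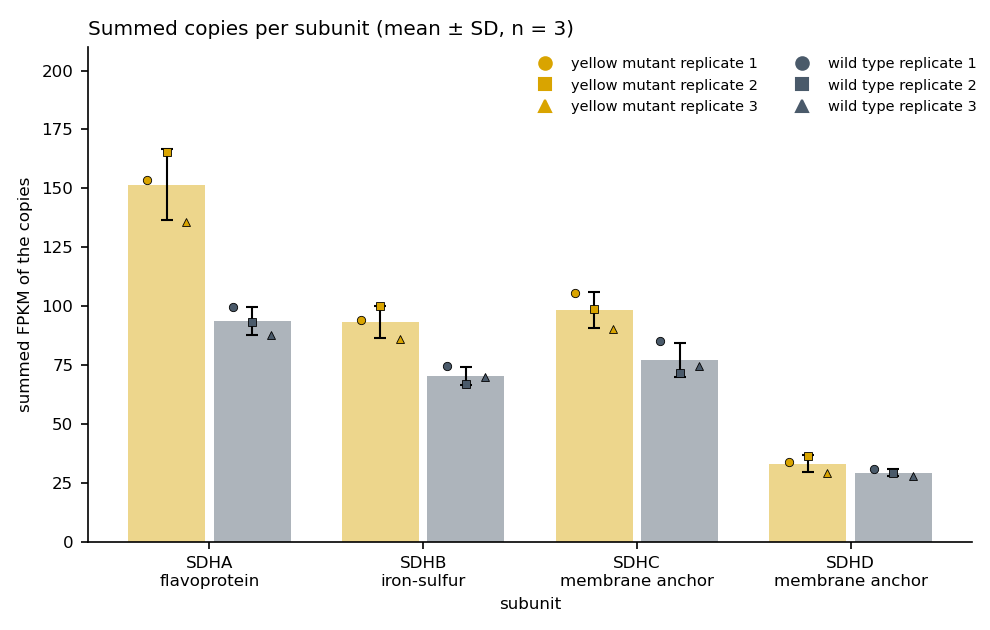
Summed FPKM of the copies of each subunit; bars are means of 3 libraries with SD, and points are libraries. SDHA averages 151.5 FPKM in yellow mutant skin and 93.6 FPKM in wild-type skin, and SDHD is lowest in both phenotypes.

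The ratio of subunits within a library, which is free of library scaling, separated the phenotypes for SDHA and for SDHB over SDHD. SDHA over SDHD was 4.53, 4.56 and 4.63 in yellow mutant skin and 3.24, 3.21 and 3.15 in wild-type skin. SDHA over SDHB was 1.64, 1.66 and 1.57 in yellow mutant skin and 1.34, 1.39 and 1.25 in wild-type skin. SDHB over SDHD was 2.82 ± 0.106 in yellow mutant skin and 2.41 ± 0.101 in wild-type skin. SDHB over SDHC overlapped, at 0.951 ± 0.0599 in yellow mutant skin and 0.916 ± 0.0375 in wild-type skin.

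The assembly factors insert the cofactors and protect the subunits before the enzyme is complete. SDHAF2 attaches the flavin to SDHA, SDHAF4 binds flavinated SDHA, and SDHAF1 and SDHAF3 serve the iron-sulfur clusters of SDHB. By product name the rule found 4 assembly factor loci, of which 3 stood past the threshold in the higher direction and 0 in the lower, beside 21.7% of all genes higher. SDHAF4 ncbi_110502394 had 25.0, 21.0 and 21.0 CPM in yellow mutant skin and 17.1, 14.5 and 15.9 CPM in wild-type skin (log2 fold change 0.49, SE 0.10). Its other copy, ncbi_110527817, overlapped, at 4.17 ± 0.397 CPM in yellow mutant skin and 3.95 ± 0.553 CPM in wild-type skin.

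SDHAF1 ncbi_110533801 had 3.82, 4.40 and 4.15 CPM in yellow mutant skin and 2.028, 2.003 and 3.087 CPM in wild-type skin (log2 fold change 0.79, SE 0.22). Locus sdhaf3 ncbi_110488139 had 3.873, 4.599 and 3.993 CPM in yellow mutant skin and 3.16, 3.01 and 2.72 CPM in wild-type skin (log2 fold change 0.49, SE 0.18). The call of sdhaf3 was lost whichever library was left out, with the DESeq2 Wald test and with the replicate block. The yeast-derived product name of SDHAF2 kept it outside the rule. Its locus sdhaf2 ncbi_110526534 stood at 41.0 ± 0.928 CPM in yellow mutant skin and 23.4 ± 1.63 CPM in wild-type skin (log2 fold change 0.81, SE 0.0803, edgeR adjusted p = 3.77e-06). The other copy, ncbi_110506664, stood at 18.7 ± 1.63 CPM in yellow mutant skin and 16.9 ± 1.31 CPM in wild-type skin (edgeR adjusted p = 0.257, and 0.0109 with library totals alone).

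Other respiratory genes did not show one common direction with TMM scaling. The lists here and below were chosen by gene name, with earlier results of these data known, so their counts are a description. Counts are of loci past an adjusted p of 0.05 in the edgeR fit over all genes. Of all 30691 genes tested, 21.7% were higher and 23.1% lower with TMM. With library totals alone, 10805 were higher and 4544 lower. Mitochondrially encoded subunits were not among the tested loci of complexes I, III, IV and V, so these lists cover only part of each complex. Complex I, the proton-pumping NADH dehydrogenase, had 11 of 64 tested loci higher and 8 lower (median log2 fold change -0.055). Complex III, which takes the electrons from ubiquinol, had 6 of 22 higher and 2 lower (median 0.025). Complex IV, cytochrome c oxidase, had 9 of 34 higher and 5 lower (median 0.11), and complex V, the ATP synthase, 4 of 29 higher and 12 lower (median -0.19). With library totals alone the medians were 0.14, 0.22, 0.31 and 0.005 for complexes I, III, IV and V, and loci higher and lower numbered 23 and 3 for complex I, 10 and 0 for complex III, 21 and 2 for complex IV and 4 and 3 for complex V. With TMM, complexes I and V lay below the median of all genes and complexes III and IV above it. Library totals shift all genes by about the same amount, so they cannot tell more about this order. The median of complex III was -0.014 without wild-type replicate 3 and -0.02 without yellow mutant replicate 2 (all genes -0.0003 and 0.0001). That of complex I was 0.033 without yellow mutant replicate 3 (all genes 0.0045). Loci higher in complex I numbered 6 without wild-type replicate 3 and 7 without wild-type replicate 2 or without yellow mutant replicate 1 or 2, and loci lower in complex I numbered 5 without wild-type replicate 3. Loci lower in complex V numbered 7 without wild-type replicate 1 and 6 without yellow mutant replicate 3. Leaving out wild-type replicate 1, or else yellow mutant replicate 3, gave 3 lower in complex IV, and the 2 lower in complex III became 4 without yellow mutant replicate 2 and 1 without any of the others.

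Within these complexes the named loci moved both ways. A named locus does not stand for its gene, since other loci of the same symbol could pass in the opposite direction. These included ndufa4 ncbi_110538650 (log2 fold change 0.43), NDUFB6 ncbi_110497182 (-0.37), COX4I1 ncbi_110532257 (-0.41) and Uqcrfs1 ncbi_110506369 (0.46). In complex I, NDUFB7 ncbi_110485407 rose (log2 fold change 1.71, SE 0.21, edgeR adjusted p = 2.78e-05), and ndufa4 ncbi_100653434, an abundant subunit that is also assigned to complex IV, fell to 85.7 ± 6.96 CPM in yellow mutant skin, against 151.3 ± 1.55 CPM in wild-type skin (edgeR adjusted p = 3.2e-06). NDUFA10 ncbi_110501896 also fell (log2 fold change -0.63, SE 0.11, edgeR adjusted p = 0.000339). In complex III, the hinge protein locus UQCRH ncbi_110508937 stood at 64.8 ± 4.01 CPM in yellow mutant skin and 33.6 ± 1.42 CPM in wild-type skin (edgeR adjusted p = 8.08e-07), and UQCR10 MSTRG.7334 was higher by a log2 of 1.28 (SE 0.33, edgeR adjusted p = 0.00612). In complex IV, COX4I1 ncbi_110492636, whose product name is subunit 4 isoform 2, stood at 36.7 ± 5.02 CPM in yellow mutant skin and 19.2 ± 1.47 CPM in wild-type skin (edgeR adjusted p = 1.29e-05). Cox6b1 ncbi_110509074 fell to 50.9 ± 5.29 CPM in yellow mutant skin, against 73.1 ± 4.37 CPM in wild-type skin (edgeR adjusted p = 0.000352). In complex V, Atp5mc3 ncbi_110538098, a copy of the membrane ring subunit c, fell to 120.4 ± 13.3 CPM in yellow mutant skin, against 232.1 ± 3.08 CPM in wild-type skin (edgeR adjusted p = 2.28e-06), while Atp5f1e ncbi_110532054, the epsilon subunit, rose to 123.3 ± 5.57 CPM in yellow mutant skin, against 79.6 ± 4.99 CPM in wild-type skin (edgeR adjusted p = 2.58e-05).

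Other loci with the largest changes in these complexes were less abundant or rested on the scaling. COX7A2 ncbi_110522088 rose to 2.73 ± 0.188 CPM in yellow mutant skin, against 1.13 ± 0.150 CPM in wild-type skin (edgeR adjusted p = 0.00102), and ATP5I ncbi_110523802 to 28.8 ± 0.853 CPM in yellow mutant skin, against 21.3 ± 3.39 CPM in wild-type skin (edgeR adjusted p = 0.00461). ATP5H ncbi_110538877, a subunit of the ATP synthase stalk, fell to 12.3 ± 1.23 CPM in yellow mutant skin, against 19.4 ± 1.58 CPM in wild-type skin (edgeR adjusted p = 0.000225). The lower calls of Uqcrc1 ncbi_110527932, Uqcrfs1 ncbi_110497954 and COX6B1 ncbi_110491567 (edgeR adjusted p = 0.0135, 0.0457 and 0.0229) were lost with library totals alone (adjusted p = 0.173, 0.725 and 0.159). NDUFB6 ncbi_110497180 was higher by a log2 of 1.06 (SE 0.33, edgeR adjusted p = 0.0178), with overlapping libraries, and its call was lost without wild-type replicate 2 or 3 or yellow mutant replicate 1 or 2 (adjusted p = 0.0535 to 0.079).

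The TCA cycle without SDH had 5 of 35 loci higher (14.3%) and 11 lower (31.4%), beside 21.7% and 23.1% of all genes. The median log2 fold change was -0.16, and 0.044 with library totals alone, beside -0.003 and 0.196 over all genes. With library totals alone 10 were higher and 4 lower. IDH2 ncbi_110495940, the mitochondrial NADP-dependent isocitrate dehydrogenase, fell to 162.1 ± 34.2 CPM in yellow mutant skin, against 254.3 ± 19.4 CPM in wild-type skin (edgeR adjusted p = 0.00118). Its copy ncbi_110521263 stood at 531 ± 122 CPM in yellow mutant skin and 789 ± 56.6 CPM in wild-type skin (edgeR adjusted p = 0.00432, and 0.0629 with limma on log2(FPKM + 1)). The step before SDH is made by succinyl-CoA ligase. A locus of its GDP-forming beta subunit, SUCLG2 MSTRG.27463, rose to 5.12 ± 0.313 CPM in yellow mutant skin, against 2.86 ± 0.412 CPM in wild-type skin (edgeR adjusted p = 0.00194). DLST ncbi_110529282, a component of the 2-oxoglutarate dehydrogenase complex, rose by a log2 of 0.71 (SE 0.14, edgeR adjusted p = 0.00107). Other loci of these steps passed in the lower direction, dlst ncbi_110522634 and Dlst ncbi_110497925 with log2 fold changes of -0.39 and -0.24, and SUCLA2 ncbi_110520344, the ADP-forming beta subunit, with -0.39.

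**Figure D4:**
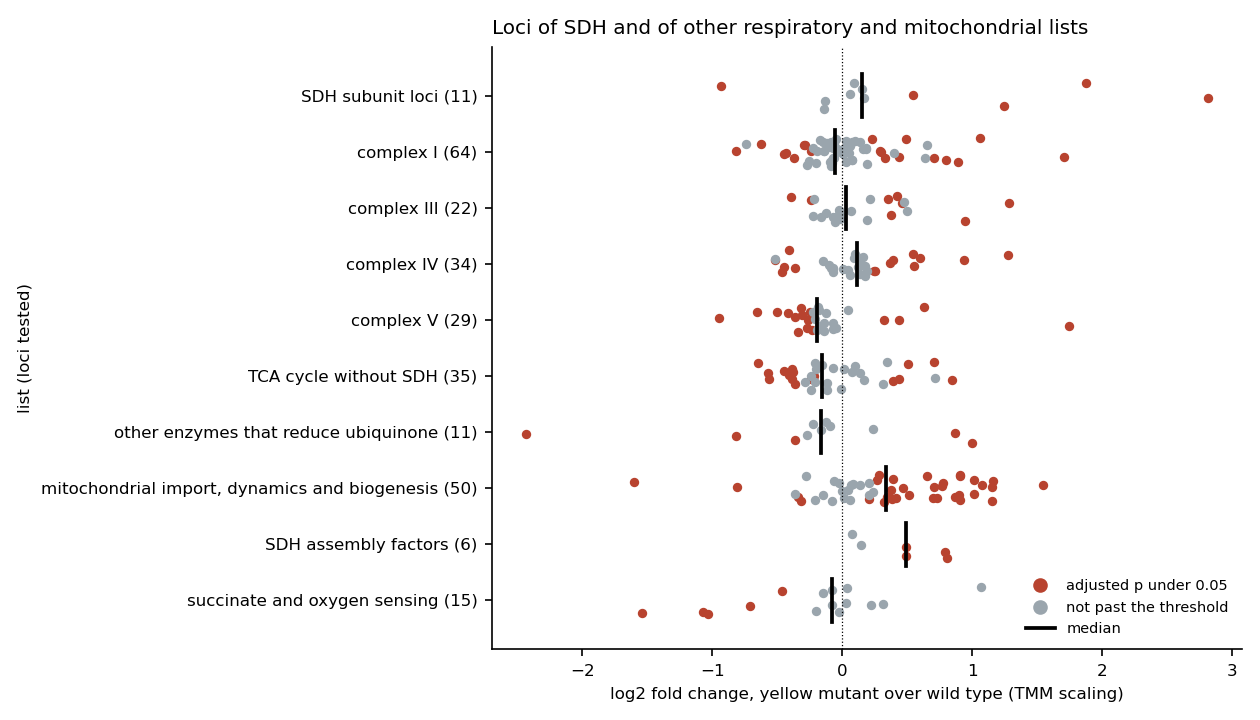
Log2 fold change of every tested locus of SDH and of 9 other lists; black bars are medians and red points passed an adjusted p of 0.05. The 11 SDH subunit loci run from -0.94 to 2.81, while the median of the mitochondrial import, dynamics and biogenesis list lies at 0.33 and that of complex V at -0.19.

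Other enzymes that pass electrons to ubiquinone had 2 of 11 loci higher (18.2%) and 3 lower (27.3%), beside 21.7% and 23.1% of all genes. With library totals alone the counts were 2 and 2. Prodh ncbi_110537170, the first enzyme of proline breakdown, had 5.67, 5.38 and 5.02 CPM in yellow mutant skin and 30.1, 29.3 and 27.2 CPM in wild-type skin (log2 fold change -2.43, SE 0.0999, edgeR adjusted p = 2.73e-09). A second copy, ncbi_110523753, fell to 37.3 ± 5.65 CPM in yellow mutant skin, against 65.7 ± 0.893 CPM in wild-type skin (edgeR adjusted p = 2.26e-05). A further copy, PRODH ncbi_110526004, overlapped, at 5.48 ± 1.59 CPM in yellow mutant skin and 6.42 ± 0.275 CPM in wild-type skin (edgeR adjusted p = 0.36). Both copies of DHODH, the pyrimidine synthesis enzyme, rose. The more abundant, ncbi_110526313, had 22.1, 22.8 and 25.5 CPM in yellow mutant skin and 11.9, 13.4 and 13.4 CPM in wild-type skin (edgeR adjusted p = 1.02e-05). The other, ncbi_110506427, had 5.90, 5.14 and 6.55 CPM in yellow mutant skin and 3.28, 3.51 and 2.06 CPM in wild-type skin (edgeR adjusted p = 0.00154).

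Genes of mitochondrial import, dynamics and biogenesis had 29 of 50 loci higher (58.0%) and 4 lower (8.0%), beside 21.7% and 23.1% of all genes. Their median log2 fold change was 0.33 (0.53 with library totals alone, with 38 higher and 2 lower). TIMM44 ncbi_110508895, which tethers the import motor to the inner membrane, stood at 7.54 ± 0.408 CPM in yellow mutant skin and 2.58 ± 0.0894 CPM in wild-type skin (edgeR adjusted p = 4.29e-06). Tomm22 ncbi_110499083, an import receptor of the outer membrane, stood at 19.2 ± 1.21 CPM in yellow mutant skin and 8.55 ± 0.952 CPM in wild-type skin (edgeR adjusted p = 2.21e-06). Among the loci that fell was Ppargc1a ncbi_100462762, a transcriptional coactivator of mitochondrial biogenesis, with 0.864 ± 0.167 CPM in yellow mutant skin and 2.65 ± 0.784 CPM in wild-type skin (edgeR adjusted p = 0.000863). A second copy, PPARGC1A ncbi_110500614, stood at 2.103 ± 0.562 CPM in yellow mutant skin and 3.72 ± 0.368 CPM in wild-type skin (edgeR adjusted p = 0.0112, and 0.0749 with limma on log2(FPKM + 0.5)). The related Ppargc1b loci ncbi_110488579 and ncbi_110504406 passed in the higher direction (log2 fold changes 0.39 and 0.90). So did nrf1 ncbi_110490605 (0.38), while nrf1 ncbi_110490610 did not pass (-0.36). Among genes of mitochondrial dynamics, Mfn2 ncbi_110532171 passed in the higher direction (0.26) and Mfn1 ncbi_110533192 in the lower (-0.34). The other Mfn1 locus and all opa1 and dnm1l loci in the list did not pass.

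Set against these lists within each library, the summed SDH subunits were higher in yellow mutant skin relative to complexes I, III, IV and V and the TCA cycle. The sum does not stand for each subunit, and single subunits were not set against the lists. All SDH subunits are nuclear-encoded, while the complex lists lack tested mitochondrially encoded subunits, so all of SDH is set against part of each complex. SDHA held 39.7 to 41.3% of the summed SDH FPKM in yellow mutant skin and 33.8 to 35.7% in wild-type skin. SDHD held 8.57 to 9.06% in yellow mutant skin and 10.6 to 11.1% in wild-type skin. For every 100 FPKM of complex I there were 8.89, 9.14 and 8.89 FPKM of SDH in yellow mutant skin and 7.231, 7.001 and 7.169 in wild-type skin. For every 100 FPKM of complex V there were 6.29, 6.18 and 6.53 in yellow mutant skin and 4.45, 4.29 and 4.41 in wild-type skin. The same ratio was 21.0 ± 0.255 in yellow mutant skin and 18.3 ± 0.182 in wild-type skin for complex III, and for complex IV 7.998 ± 0.209 in yellow mutant skin and 6.91 ± 0.0350 in wild-type skin. Against the TCA cycle it was 23.4 ± 1.44 in yellow mutant skin and 15.4 ± 0.204 in wild-type skin. In all of these no yellow mutant library overlapped with a wild-type library. Against the import, dynamics and biogenesis list the phenotypes overlapped, at 25.7 ± 0.874 in yellow mutant skin and 26.4 ± 1.01 in wild-type skin. Against the 6 assembly factor loci the yellow mutant lay below without overlap, at 499.4 ± 46.5 in yellow mutant skin and 570.4 ± 10.6 in wild-type skin.

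**Figure D5:**
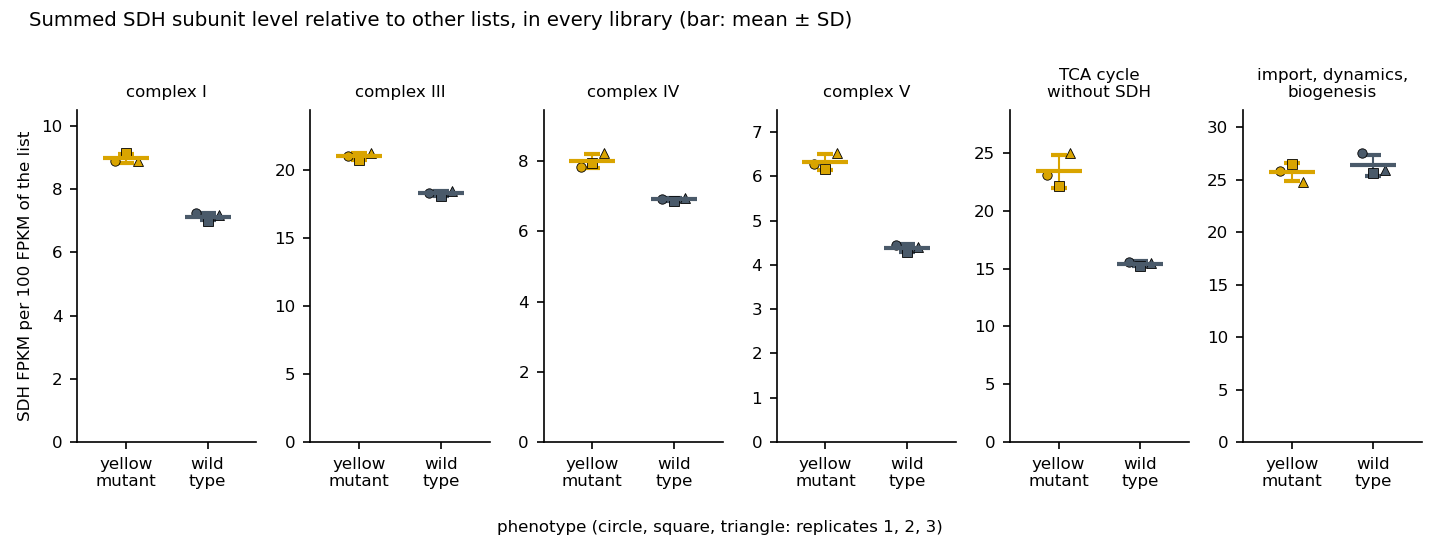
Summed FPKM of the 12 SDH subunit loci per 100 FPKM of each list, in every library, with mean and SD; each panel has its own axis from 0. The yellow mutant lies above the wild type against complexes I, III, IV and V and the TCA cycle, and the phenotypes overlap against the import, dynamics and biogenesis list.

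Succinate can act outside the enzyme, as a ligand of the receptor SUCNR1 and as an inhibitor of the prolyl hydroxylases (EGLN) that mark hypoxia-inducible factors for breakdown. The 1 Sucnr1 locus, ncbi_110507284, had 0 counts in all 6 libraries. Of 104226618 counts in total, a count of 0 allows a level of up to 0.0288 CPM, from counting error only. Of 15 tested loci of this list, 0 were higher and 5 lower (33.3%), beside 21.7% higher and 23.1% lower of all genes. With library totals alone, with limma on FPKM, or without yellow mutant replicate 3, 2 loci passed in the higher direction. HIF1A ncbi_110503712 had 36.2, 33.7 and 31.4 CPM in yellow mutant skin and 58.3, 54.1 and 53.5 CPM in wild-type skin (edgeR adjusted p = 1.22e-05). Further loci of hypoxia-inducible factor subunits that fell were Epas1 ncbi_110503001 (log2 fold change -1.03, SE 0.15, edgeR adjusted p = 0.000101) and Epas1 ncbi_110499310 (-0.47, SE 0.081, edgeR adjusted p = 0.000421). HIF1A ncbi_110510148, with the product name protein similar-like, fell too (-1.54, SE 0.28, edgeR adjusted p = 0.000655). Egln3 ncbi_110505778 stood at 1.03 ± 0.225 CPM in yellow mutant skin and 2.14 ± 0.451 CPM in wild-type skin (edgeR adjusted p = 0.0089, and 0.0554 without wild-type replicate 3). The other hif1a loci, such as ncbi_100135944 with 68.2 ± 0.355 CPM in yellow mutant skin and 75.6 ± 6.63 CPM in wild-type skin, did not pass.

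Likeness of pattern over the 6 libraries was described by Pearson's r of log2 CPM between each summed subunit and 12819 genes with a mean of at least 10 CPM. All of these values come from the same 6 libraries, and no p is given. Nearest to SDHA were Uqcrfs1 ncbi_110506369 (r = 0.997), the Rieske protein of complex III, and cluh ncbi_110507701 (r = 0.995), an RNA-binding protein of mitochondrial messages. Nearest to SDHB were chd8 ncbi_110508488 (r = 0.997), a chromatin remodeller, and SYNE1 ncbi_110522395 (r = 0.995), a protein of the nuclear envelope. Nearest to SDHC were APPBP2 ncbi_110533884 and Ptcd1 ncbi_110498950, with r = 0.990 and 0.989. Nearest to SDHD were dhtkd1 ncbi_110524999 and SMTN ncbi_110536077, both with r = 0.989.

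The neighbours of the loci in the RefSeq gene table of assembly USDA_OmykA_1.1, in which 14 of the 16 loci were found (all but ncbi_110520843 and ncbi_110507282), show which copies share a gene order. No coordinates are given, since the build used for counting is unnamed. The abundant sdha loci ncbi_110496683 and ncbi_110488064 both lie next to a psma2 locus, with a DEK locus on the other side. Both SDHAF4 loci lie between a Cep68 and a TLX1 locus. For SDHB, ncbi_110494374 and ncbi_110528062 both lie next to Mfap2 and Crocc loci, while ncbi_110492247 lies next to ATP13A2.

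The difference at sdhb ncbi_110492247 was not seen at its tested neighbours. ATP13A2 ncbi_110492246, a lysosomal transporter, was lower in yellow mutant skin, at 27.7 ± 1.43 CPM, against 37.6 ± 2.16 CPM in wild-type skin (log2 fold change -0.44, SE 0.081, past the threshold). Otud3 ncbi_110492249, a deubiquitinase, stood at 7.12 ± 1.30 CPM in yellow mutant skin and 7.14 ± 0.506 CPM in wild-type skin (not past the threshold).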

How the data were processed

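Total RNA of dorsal skin was extracted with Trizol and sequenced as Illumina libraries, per the labels' protocols. Bowtie2 2.2.8 and TopHat2 2.1.1 were used, per the submitters' processing notes, with no roles given. Counting tool, treatment of reads that match several loci, strandedness, build and gene models: not given in the sources used here. For each library the deposited values are raw counts and, per the file headers, FPKM computed by the authors. Further columns, also deposited, are mean FPKM by phenotype, their log2 fold change, and a p-value with FDR whose test is unnamed. The authors' means, fold changes and p-values were not used for results.

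Genes were filtered with edgeR's filterByExpr, scaled with TMM factors and tested with glmQLFit and glmQLFTest without covariates (R 4.3.3, edgeR 4.0.16), with Benjamini-Hochberg adjustment over 30691 genes and a threshold of 0.05. The SE is the log2 fold change divided by the square root of F. Copies were summed as counts for CPM and as FPKM for comparisons per length. Alternatives used DESeq2 1.42.0 and limma 3.58.1. The fit was tested on simulated data. Libraries of a phenotype differed beyond sampling noise (chi-square per degree of freedom 3.88 to 23.1). Each was treated as 1 sample, though this spread does not tell if the libraries are different fish.

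The loci and gene lists were chosen with earlier results of these data known. All SDH subunit and assembly factor loci are named. From each other list the loci with the largest changes past the threshold were eligible, up to 2 higher and 2 lower, with a mean of at least 1 CPM. For likeness the 2 genes with the highest r per subunit are named. The HIF1A, Epas1, hif1a, dlst, Dlst, SUCLA2, PRODH, Ppargc1b, nrf1, Mfn1, Mfn2, opa1, dnm1l, ndufa4, NDUFB6, COX4I1 and Uqcrfs1 loci outside this rule were named after their values were seen. So were the neighbours. A locus whose product name went against its symbol was left out of 3 families (delta-like protein, a protein complex of the endoplasmic reticulum, A-agglutinin).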

Additional observations from a re-analysis of the deposited data

How the results depend on the processing

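The 5 subunit loci past the threshold were the same, with the same signs, under DESeq2's size factors, no filter on low counts, the DESeq2 Wald test and each left-out library. Library totals alone gave 8 (added ncbi_110488064, ncbi_110503765 and ncbi_110508324), and limma on log2 FPKM gave 7. The log2 fold changes of summed copies moved with the scaling. With library totals alone they were 0.683 for SDHA, 0.557 for SDHB, 0.345 for SDHC and 0.195 for SDHD. With limma on summed FPKM and pseudocounts of 0.5, 0.1 and 1 they were 0.690, 0.692 and 0.687 for SDHA, 0.4, 0.402 and 0.398 for SDHB, 0.349, 0.350 and 0.347 for SDHC, and 0.173, 0.175 and 0.17 for SDHD. Leaving out each library in turn gave 0.429 to 0.570 for SDHA, 0.319 to 0.428 for SDHB, 0.093 to 0.215 for SDHC and -0.066 to 0.088 for SDHD. SDHB without ncbi_110492247 was -0.168. The difference in the share of ncbi_110492247 was 28.6 percentage points by counts, 27.6 to 29.7 with each library left out, and 21.6 by FPKM, where the copies' lengths enter. Over all genes, calls numbered 10830 with DESeq2, 14553 to 14640 with limma and 11674 to 12553 with a library left out. The cause of the shifts with FPKM was not tested; TMM factors (1.06 to 1.08 for yellow mutant libraries, 0.920 to 0.950 for wild-type libraries) set the distance between TMM and library totals.

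Deviations of same-numbered libraries of the phenotypes had r = 0.080, 0.0137 and 0.0557 for numbers 1 to 3, none above 0.1. Different-numbered libraries had lower values, -0.0616 to 0.00739. With 3 libraries per phenotype, these values cannot decide whether the numbers pair the libraries. With the replicate block, 13868 genes were called against 13737 without it, the same number of subunit loci passed in each direction, and the sums were 0.482 for SDHA, 0.357 for SDHB, 0.147 for SDHC and -0.009 for SDHD. Low counts limit SDHAF1, sdhaf3 and sdhb ncbi_110528062, with 28 to 106 counts per library.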

Other observations

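Some genes near SDH loci passed the threshold where the SDH locus itself did not, beside 44.8% of all genes called. Others did not pass, such as Mfap2 ncbi_110494375 and Crocc ncbi_110494376 on the other side of sdhb ncbi_110494374. Next to sdhb ncbi_110494374, whose phenotypes overlapped, mrpl20 ncbi_110494373, a protein of the mitochondrial ribosome, stood at 38.0 ± 1.93 CPM in yellow mutant skin and 16.4 ± 1.63 CPM in wild-type skin, and atad3-b ncbi_110494372, a mitochondrial membrane ATPase, at 34.1 ± 0.907 CPM in yellow mutant skin and 16.7 ± 0.321 CPM in wild-type skin (SD, n = 3, log2 fold changes 1.21 and 1.03, both past the threshold). Next to sdhdb ncbi_110503765, timm8a ncbi_110503767, an import chaperone, stood at 12.04 ± 1.01 CPM in yellow mutant skin and 7.25 ± 0.837 CPM in wild-type skin, while SORL1 ncbi_110503325, a sorting receptor further along, stood at 24.1 ± 0.755 CPM in yellow mutant skin and 49.99 ± 4.68 CPM in wild-type skin. Near sdha ncbi_110520756, which itself passed, Mrpl32 ncbi_110507261 was higher by a log2 of 1.04 (SE 0.12) and COL6A2 ncbi_110520755 lower by a log2 fold change of -0.64 (SE 0.11), both past the threshold. These neighbours were named after their values were seen.

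Near sdhdb ncbi_110507178, Bco2 ncbi_110507165, an enzyme that cleaves carotenoids, stood at 0.724 ± 0.184 CPM in yellow mutant skin and 2.103 ± 0.789 CPM in wild-type skin (log2 fold change -1.53, SE 0.36, past the threshold). The nearer neighbour on the same side, interleukin 18 ncbi_100136640, passed in the higher direction (log2 fold change 0.77, SE 0.136). A carotene oxygenase-like locus next to the other SDHD copy, ncbi_110503763, had too few counts to be tested. It stood at 0.417 ± 0.0854 CPM in yellow mutant skin and 0.284 ± 0.197 CPM in wild-type skin. These loci too were named after their values were seen.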
